A study of Mus musculus with 20 samples.

Results

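The genes of the mitochondrial protein import machinery were compared between WT and Taz-KD mice in heart and in skeletal muscle. They were taken as the protein-coding genes present in the count tables of both tissues whose GENCODE symbol starts with Tomm or Timm, or is Dnajc19, Pam16, Grpel1, Grpel2, Samm50, Mtx1, Mtx2 or Chchd4. The rule found 34 genes among the 46649 genes that both tables list. Tomm6os, an antisense RNA, was left out because it codes for no protein. Taz encodes tafazzin, the enzyme that remodels cardiolipin in mitochondria and is lost in Barth syndrome. WT animals were C57BL/6N mice, and Taz-KD animals carried the transgene ROSA26H1/tetO-shRNA:TAZ, from which doxycycline induces a hairpin RNA against Taz throughout the body. Both genotypes ate chow with 625 mg/kg doxycycline and were studied at 20 weeks, so the controls share the drug but not the transgene, and effects of the hairpin itself and of the loss of Taz cannot be told apart. Per tissue there were 5 libraries of each genotype, and each library was taken to stand for a separate animal. Codes of heart and femur muscle libraries have none in common, so different animals were assumed for the tissues. The labels do not state this.

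Nearly all proteins of mitochondria are made in the cytosol and must be imported. They enter through the translocase of the outer membrane, TOM, and are then sorted: barrel proteins go to the SAM complex of the outer membrane, proteins with a presequence go to the TIM23 translocase and its Hsp70-driven motor, carrier proteins are led by small TIM chaperones to the TIM22 translocase, and proteins of the intermembrane space are trapped by the disulfide relay of Chchd4. Cardiolipin, the lipid that tafazzin matures, lies in the inner membrane where the TIM23 and TIM22 translocases work, and the heart is among the tissues richest in mitochondria.

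Total counts were from 26963288 to 30090918 in WT hearts, from 30248445 to 35301909 in Taz-KD hearts, from 36429399 to 61100247 in WT muscle and from 46985694 to 74361382 in Taz-KD muscle. All Taz-KD hearts were thus sequenced deeper than all WT hearts, and the part of depth in the heart results was not tested. Values are given in CPM, that is counts scaled with TMM factors to one common library total within a tissue. Taz measured 35.97 to 39.2 CPM in WT hearts and 11.02 to 12.9 CPM in Taz-KD hearts, and 45.9 to 54.8 CPM in WT muscle and 12.7 to 15.2 CPM in Taz-KD muscle (log2 fold change -1.70, SE 0.062, adjusted p = 4.08e-09 in heart, log2 fold change -1.94, SE 0.084, adjusted p = 1.86e-06 in muscle, edgeR), which goes with the labels. Heart muscle markers (Myh6, Tnnt2, Tnni3, Myl7 and Ryr2) summed to 31590 to 44480 CPM in hearts and to 4.58 to 37.0 CPM in muscle. Skeletal muscle markers (Acta1, Myh4, Myh1, Tnnt3 and Tnni2) summed to 48900 to 158000 CPM in muscle and to 36.7 to 1493 CPM in hearts, nearly all of it from Acta1. Muscle libraries A33 and A55, both WT, stood apart from the other muscles on the first principal component (-88 and -71.4 against -1.9 to 33.7), and hearts R2 (Taz-KD) and R3 (WT) carry numbers in their codes far below those of the other hearts. Results that change without these libraries are given with and without them.

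All import genes but 3 were measured with at least 72 counts in every library of both tissues. Compared per kb of exons in WT mice, Timm8b, a small TIM chaperone subunit, was highest in heart, at 41.8 to 61.8 CPM per kb, followed by Tomm5 (30.5 to 45.4), Timm23 (24.4 to 33.5) and Tomm7 (19.9 to 24.6). Each of these overlapped its neighbour in the order, and only 5 of the neighbouring pairs among the 34 genes were separate in all libraries. In muscle Timm8b was again highest, at 89.2 to 124 CPM per kb, with no overlap with Timm23 (45.4 to 79.6), which in turn lay above Tomm5 (28.7 to 43.1). The lowest tested genes per length were Timm9 (1.53 to 1.80) and Timm10b (1.65 to 1.81) in heart and Timm10b (0.693 to 1.29) in muscle. The tissues were counted and scaled in separate tables, which list 47069 genes for heart and 53801 for muscle, and levels are set side by side without a test. Some genes outside the rule were far apart between the tables in WT mice: March5 measured 46.6 CPM in heart and 0.0116 CPM in muscle, Atp5a1, a subunit of the ATP synthase of mitochondria, 2655 and 67.4 CPM, and Uqcrc1, a subunit of complex III, 727 and 21.2 CPM. Whether both tables were counted with the same annotation and settings is not given in the sources used here, so tissue, library preparation and counting cannot be told apart in these levels, and the part of counting in the differences of effect between tissues was not tested.

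**Figure D1:**
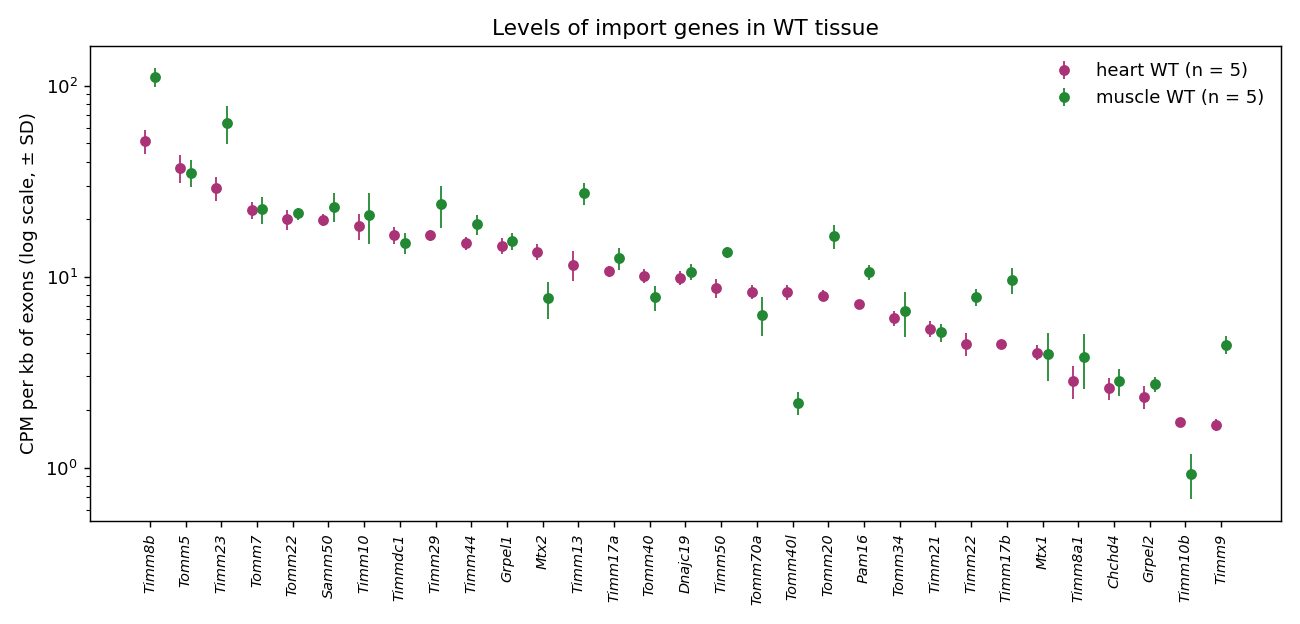
Levels of the 31 tested import genes in WT heart and WT muscle, as CPM per kb of exons on a log axis, ordered by the level in heart. Points are means of 5 libraries and bars are SD, and Timm8b tops both tissues while Tomm40l and Mtx2 sit lower in muscle than in heart.

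The 3 genes that did not pass the filter on low counts in either tissue were Tomm6, Tomm20l and Timm8a2. Tomm6, a small TOM subunit, measured 0.0322 to 0.0700 CPM in WT hearts and 0.0663 to 0.187 CPM in WT muscle. In the annotation 76.0% of its exon bases are shared with Gm21981 on the same strand, so its count is uncertain. Tomm20l reached 0.413 CPM in hearts and 0.0468 CPM in muscle, and Timm8a2 at most 0.0617 CPM in hearts and 0.0321 CPM in muscle. No fold change is given for them.

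In Taz-KD hearts 11 of the 31 import genes tested rose, 1 fell and 19 did not pass (adjusted p under 0.05 over all genes, edgeR), which is 35.5% higher and 3.23% lower. Over all 19486 genes tested in heart 14.4% were higher and 10.3% lower, so the share that rose lay above the background and the share that fell below it. The median log2 fold change of the import genes was 0.13, against -0.02 over all genes, and 24 of the 31 values were above 0. The genes that rose were Grpel2, Timm10, Chchd4, Timm8a1, Timm13, Timm50, Grpel1, Tomm20, Pam16, Mtx2 and Tomm70a, and the gene that fell was Timm29. The rises were small, between 117% and 160% of the WT mean. In 6 of the 31 tested genes, all among the 11 that rose, all Taz-KD hearts lay above all WT hearts, as in 11.3% of all genes, and in Timm29 all lay below, as in 7.05% of all genes. In whole tissue fewer cells of a type and less RNA per cell cannot be told apart.

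**Figure D2:**
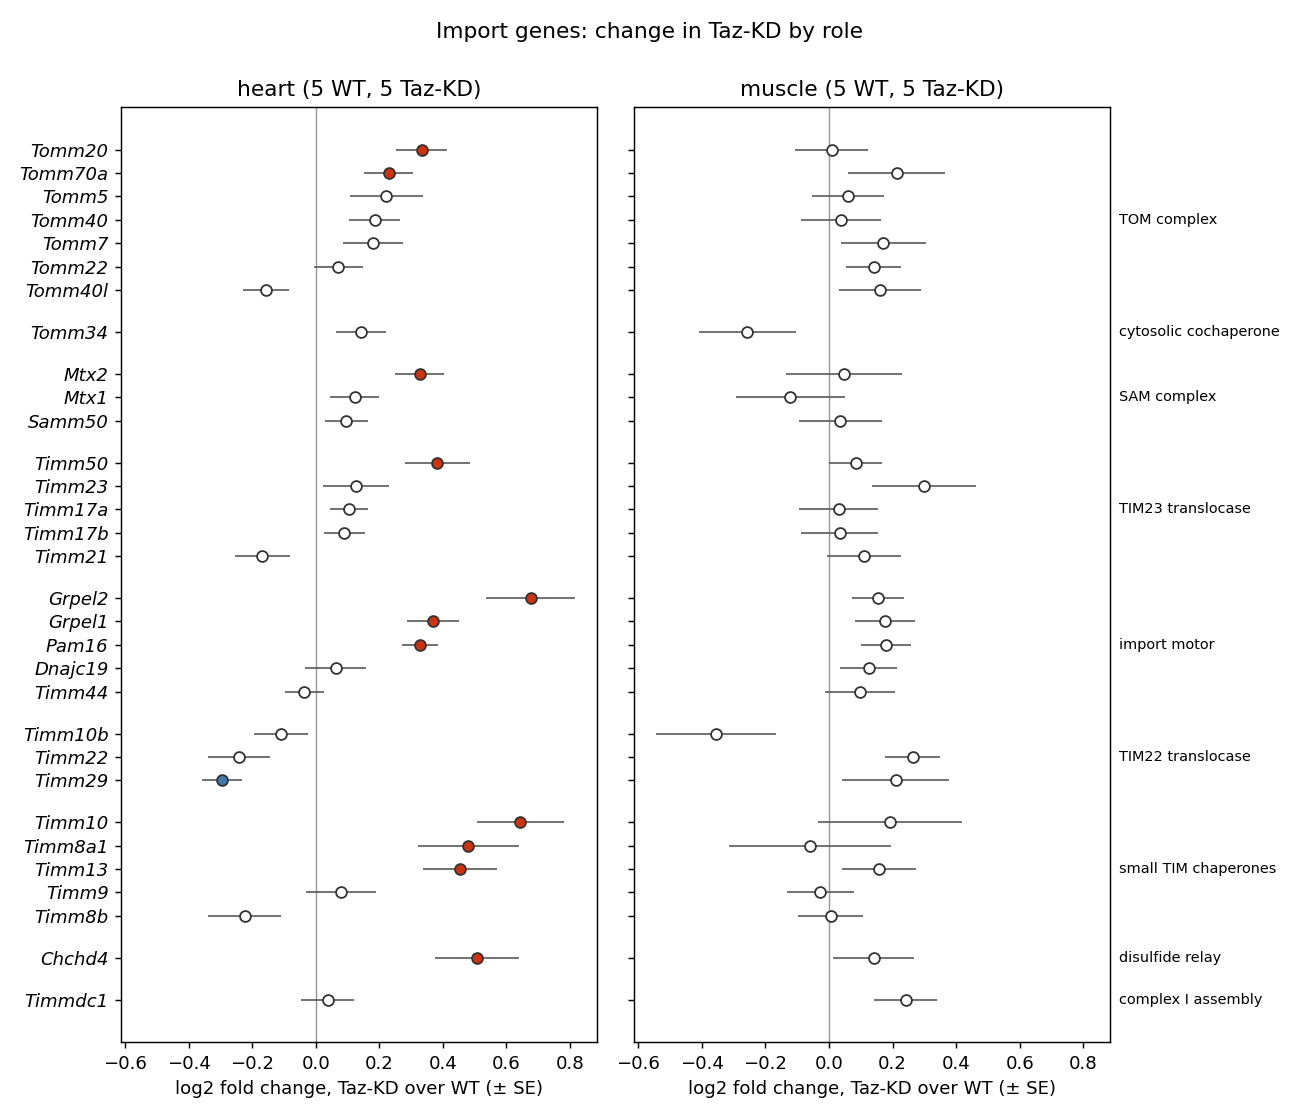
Log2 fold change of Taz-KD over WT with its SE for the 31 tested import genes, grouped by role, in heart (left) and muscle (right), 5 libraries per genotype. Filled red points passed the test as higher (11 in heart), the filled blue point as lower (Timm29 in heart), and open points did not pass, which holds for all 31 in muscle.

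The stretches before 5 genes called in heart are shown, chosen to hold matches of different kinds or none, as the 250 bases upstream of the RefSeq start on GRCm38.p6, in the direction of the gene. Tomm20 (chr8:126945922-126946171, minus strand) holds a match to CGCANGCG, the core read by NRF1, Mtx2 (chr2:74825562-74825811, plus strand), Timm10 (chr2:84826771-84827020, plus strand) and Timm29 (chr9:21592472-21592721, plus strand) hold CCGGAAG, the letters of an ETS site, on one of the strands, and Timm50 (chr7:28312047-28312296, minus strand) holds neither in these bases. Capitals mark the matches. For Mtx2, Timm10 and Timm50 GENCODE starts the gene 9, 24 and 26 bases further upstream than RefSeq.
Tomm20: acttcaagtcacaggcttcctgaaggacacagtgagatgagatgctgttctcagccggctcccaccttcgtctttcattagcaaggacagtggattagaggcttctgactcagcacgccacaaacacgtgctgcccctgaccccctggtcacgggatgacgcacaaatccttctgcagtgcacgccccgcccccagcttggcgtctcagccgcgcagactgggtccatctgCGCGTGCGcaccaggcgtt
Mtx2: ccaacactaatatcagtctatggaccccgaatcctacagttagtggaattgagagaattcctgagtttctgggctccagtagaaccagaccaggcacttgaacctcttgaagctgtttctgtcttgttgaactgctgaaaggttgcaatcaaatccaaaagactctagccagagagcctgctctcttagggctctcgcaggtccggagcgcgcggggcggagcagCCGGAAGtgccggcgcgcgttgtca
Timm10: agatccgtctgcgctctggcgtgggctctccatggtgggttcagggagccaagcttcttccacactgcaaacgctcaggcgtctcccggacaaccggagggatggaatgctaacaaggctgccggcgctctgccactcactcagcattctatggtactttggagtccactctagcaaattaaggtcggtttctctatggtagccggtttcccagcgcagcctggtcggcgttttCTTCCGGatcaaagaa
Timm29: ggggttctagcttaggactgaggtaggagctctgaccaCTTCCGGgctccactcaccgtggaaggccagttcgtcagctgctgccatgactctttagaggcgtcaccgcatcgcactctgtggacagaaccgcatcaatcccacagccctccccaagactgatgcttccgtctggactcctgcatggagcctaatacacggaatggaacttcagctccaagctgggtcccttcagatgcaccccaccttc
Timm50: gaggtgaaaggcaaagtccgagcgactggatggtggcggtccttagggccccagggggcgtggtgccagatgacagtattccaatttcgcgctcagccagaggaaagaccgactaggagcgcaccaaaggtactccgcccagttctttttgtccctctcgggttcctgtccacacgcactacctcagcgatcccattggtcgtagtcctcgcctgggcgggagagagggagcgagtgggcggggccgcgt
RefSeq promoters were at hand for 30 of the 34 genes as 32 windows of 300 bases, 250 before and 50 after the start, and both strands were searched. CCGGAAG was in 14 windows of 13 genes (Grpel1, Mtx1, Mtx2, Timm10, Timm10b, Timm23, Timm29, Timm8a2, Timm8b, Timmdc1, Tomm22, Tomm34 and Tomm70a), or 43.8%, against 8.86% of 32851 windows in all and 15.2% of the 15256 windows of genes tested in heart. It was found for genes that rose and for the 1 that fell, and in 4 of the 10 risen genes with a window. CGCANGCG was in 7 windows (Chchd4, Pam16, Timm13, Timm29, Timm50, Timm8b and Tomm20), or 21.9%, against 8.21% of all windows and 14.8% of those of genes tested in heart, and in 5 of the 10 risen genes with a window. A longer form, with G before this core and C after it, was searched first and was in 4 windows (Chchd4, Pam16, Timm8b and Tomm20), or 12.5%, against 4.60% of all windows and 8.55% of those of genes tested in heart, and in 3 of the risen genes. TGATGNAA, the core of the response element read by ATF4 type factors, was in 0 of the 32 windows, against 3.97% of all windows and 2.37% of those of genes tested in heart. TCAAGGTCA, the letters of an estrogen related receptor site, was in 1 window (Timm8b), or 3.13%, against 0.423% of all windows and 0.288% of those of genes tested in heart. No match of one motif shared bases with a match of another, and a match is a description of the sequence, not of binding. Grpel2, Timm21, Tomm40l and Tomm7 had no entry.

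Among the receptors and channel of the outer membrane, Tomm20 and Tomm70a rose in Taz-KD hearts, and the other 5 tested TOM genes did not pass the test. Tomm20 (ENSMUSG00000093904, chromosome 8 from 126930667 to 126945844, minus strand) encodes the receptor for presequences (gene positions are those of GENCODE M21 on GRCm38). It measured 34.8, 38.5, 40.4, 40.6 and 40.8 CPM in WT hearts and 43.4, 43.7, 49.5, 53.6 and 55.5 CPM in Taz-KD hearts. The groups were separate, with means of 38.99 ± 2.53 and 49.1 ± 5.55 CPM (SD, n = 5; log2 fold change 0.33, SE 0.081, adjusted p = 0.00964). In the annotation 3.71% of the 100-base windows of Tomm20 transcripts recur in Gm14494. Gm14494 rose as well, from 2.95 to 4.36 CPM in hearts (log2 fold change 0.56, adjusted p = 0.0365). Tomm70a (ENSMUSG00000022752, chromosome 16 from 57121703 to 57156705, plus strand) encodes the receptor for carrier precursors that arrive with cytosolic chaperones. Its values were 74.8, 76.98, 77.5, 86.95 and 90.5 CPM in WT against 83.2, 90.7, 94.5, 102 and 106 CPM in Taz-KD. They overlapped, and the rise from 81.3 ± 6.93 to 95.3 ± 9.12 CPM (SD, n = 5; log2 fold change 0.23, SE 0.078, adjusted p = 0.0498) was the weakest of the 12 calls. It was lost in 15 of 21 alternative analyses, among them DESeq2 (adjusted p = 0.067), limma-voom (adjusted p = 0.0533) and the fits without 1 heart each of R3, R1791, R1792, R1795, R2, R1793, R1796 or R1798 (adjusted p from 0.0556 to 0.121), and without R2 and R3 together (0.19, adjusted p = 0.178). Tomm22, the central receptor, measured 29.5 to 38.0 CPM in WT against 32.6 to 36.0 CPM in Taz-KD hearts, and Tomm5 and Tomm7, small subunits that support the channel, had log2 fold changes of 0.22 and 0.18 (adjusted p = 0.184 and 0.19). Tomm34, a cytosolic cochaperone of import, had a log2 fold change of 0.14 (adjusted p = 0.214).

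In the SAM complex, which inserts barrel proteins into the outer membrane, 1 of 3 genes rose. Mtx2 (ENSMUSG00000027099, chromosome 2 from 74825803 to 74878431, plus strand) encodes metaxin 2, which faces the cytosol. It measured 44.5, 45.5, 48.6, 53.2 and 55.4 CPM in WT hearts and 55.95, 59.2, 61.9, 64.2 and 68.9 CPM in Taz-KD hearts. Every Taz-KD heart was above every WT heart, though the nearest pair differed little (49.4 ± 4.76 against 62.01 ± 4.92 CPM, SD, n = 5; log2 fold change 0.33, SE 0.077, adjusted p = 0.00815). Samm50, the barrel subunit that forms the insertion pore, ranged from 120.0 to 143 CPM in WT against 131 to 151 CPM in Taz-KD (log2 fold change 0.10, SE 0.067, adjusted p = 0.33). Its groups overlapped.

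Of the TIM23 translocase 1 of 5 genes rose, the receptor Timm50. Timm50 (ENSMUSG00000003438, chromosome 7 from 28305516 to 28312072, minus strand) encodes the subunit that takes presequences over from TOM on the intermembrane side. It measured 19.6, 22.5, 22.8, 25.4 and 26.3 CPM in WT hearts and 25.5, 27.6, 29.98, 34.1 and 34.9 CPM in Taz-KD hearts. R1798 was the 1 Taz-KD heart inside the WT range (23.3 ± 2.66 and 30.4 ± 4.06 CPM, SD, n = 5; log2 fold change 0.38, SE 0.10, adjusted p = 0.0164). Timm23, the channel subunit, measured 43.5 to 59.9 CPM in WT against 51.03 to 65.2 CPM in Taz-KD (log2 fold change 0.13, SE 0.10, adjusted p = 0.417). In the annotation 47.0% of the 100-base windows of Timm23 transcripts recur in other genes, nearly all in the copy Gm10273, which was counted at no more than 1.29 CPM in hearts. Timm21, which links the translocase to the respiratory chain, was at 16.7 to 22.2 CPM in WT against 15.3 to 19.0 CPM in Taz-KD (log2 fold change -0.17, SE 0.086, adjusted p = 0.181).

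The import motor pulls the precursor into the matrix with the Hsp70 chaperone mortalin, and 3 of its 5 genes here rose. Grpel2 (ENSMUSG00000024580, chromosome 18 from 61712424 to 61726325, minus strand) and Grpel1 (ENSMUSG00000029198, chromosome 5 from 36464998 to 36474080, plus strand) encode the nucleotide exchange factors that release ADP from mortalin. Grpel2 measured 13.04, 14.1, 16.6, 17.3 and 18.04 CPM in WT hearts and 20.5, 21.2, 22.9, 29.2 and 32.5 CPM in Taz-KD hearts. It had the largest log2 fold change of the import genes in heart, with separate groups and a wide spread among Taz-KD hearts (15.8 ± 2.15 and 25.3 ± 5.29 CPM, SD, n = 5; log2 fold change 0.68, SE 0.14, adjusted p = 0.00424). Grpel1 measured 46.6, 47.1, 50.1, 54.9 and 57.4 CPM in WT against 57.1, 63.9, 66.9, 67.5 and 75.4 CPM in Taz-KD. Only R1798, the lowest Taz-KD heart, fell within the WT range (51.2 ± 4.78 and 66.2 ± 6.60 CPM, SD, n = 5; log2 fold change 0.37, SE 0.082, adjusted p = 0.00602). In Grpel1 11.6% of exon bases are shared with Tada2b on the other strand (21.8 CPM in WT against 23.5 CPM in Taz-KD hearts, adjusted p = 0.184). Pam16 (ENSMUSG00000014301, chromosome 16 from 4616464 to 4624988, minus strand) encodes the J-like partner that holds the motor's J protein in check. Its values were 17.1, 17.4, 17.5, 17.6 and 17.7 CPM in WT against 20.4, 21.4, 22.1, 22.7 and 23.00 CPM in Taz-KD. The WT hearts were tightly grouped and all below the Taz-KD hearts (17.4 ± 0.228 and 21.9 ± 1.05 CPM, SD, n = 5; log2 fold change 0.33, SE 0.056, adjusted p = 0.00116), which gave the smallest p of the import genes. In Pam16 18.7% of exon bases are shared with Glis2 on the other strand (28.4 CPM in WT against 25.8 CPM in Taz-KD hearts, adjusted p = 0.44). Of its 100-base windows 32.5% recur in other genes, most often in the copy Gm9803, counted at no more than 0.659 CPM in hearts and 2.18 CPM in muscle. Dnajc19, the J protein of the motor and the gene of a cardiomyopathy that resembles Barth syndrome, did not pass (39.7 ± 3.21 and 41.4 ± 5.97 CPM, SD, n = 5; log2 fold change 0.06, SE 0.097, adjusted p = 0.692), nor did Timm44, which tethers mortalin to the channel (log2 fold change -0.04, SE 0.061, adjusted p = 0.712).

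The small TIM chaperones carry hydrophobic precursors across the intermembrane space, and 3 of the 5 tested rose. Timm10 (ENSMUSG00000027076, chromosome 2 from 84826997 to 84830213, plus strand) encodes the partner of Timm9. It measured 12.4, 13.3, 14.7, 16.5 and 18.04 CPM in WT hearts and 18.3, 20.2, 23.2, 27.6 and 27.8 CPM in Taz-KD hearts. The groups did not overlap, but the lowest Taz-KD heart, R1798, was close to the highest WT heart (14.99 ± 2.30 and 23.4 ± 4.31 CPM, SD, n = 5; log2 fold change 0.64, SE 0.14, adjusted p = 0.0046). Timm9 itself measured 6.53 to 7.70 CPM in WT against 6.17 to 8.92 CPM in Taz-KD (log2 fold change 0.08, SE 0.11, adjusted p = 0.643). Timm13 (ENSMUSG00000020219, chromosome 10 from 80899450 to 80900969, minus strand) and Timm8a1 (ENSMUSG00000048007, chromosome X from 134537256 to 134541865, minus strand) encode the subunits of the other hexamer. Timm13 measured 12.2, 14.8, 15.1, 17.3 and 19.9 CPM in WT against 19.6, 19.7, 22.2, 23.1 and 24.01 CPM in Taz-KD. R1797 and R1798 fell below the highest WT heart (15.8 ± 2.87 and 21.7 ± 2.01 CPM, SD, n = 5; log2 fold change 0.45, SE 0.12, adjusted p = 0.0127), and without the hearts R2 and R3 the call was lost (adjusted p = 0.0539). Timm8a1 was the lowest of the genes that rose, with 2.71, 4.06, 4.27, 4.62 and 4.62 CPM in WT against 4.64, 4.91, 5.75, 6.16 and 6.85 CPM in Taz-KD. Its groups touched without overlap (4.05 ± 0.791 and 5.66 ± 0.904 CPM, SD, n = 5; log2 fold change 0.48, SE 0.16, adjusted p = 0.0421). The call of Timm8a1 was lost in 10 of 21 alternatives, among them the fits without R3, R1791, R1800, R2, R1796 or R1797 (adjusted p from 0.0611 to 0.105) and without R2 and R3 together (0.45, adjusted p = 0.124), and 38.8% of its 100-base windows recur in the copy Gm9797, counted at no more than 0.404 CPM in hearts.

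Chchd4 forms the disulfide bonds that trap small TIM proteins and other cysteine-rich proteins in the intermembrane space. Chchd4 (ENSMUSG00000034203, chromosome 6 from 91462172 to 91473546, minus strand) measured 10.9, 13.1, 13.5, 13.9 and 15.99 CPM in WT hearts and 15.9, 17.02, 18.1, 19.7 and 25.3 CPM in Taz-KD hearts. R1796 was far the highest and R1798 lay within the WT range (13.5 ± 1.82 and 19.2 ± 3.69 CPM, SD, n = 5; log2 fold change 0.51, SE 0.13, adjusted p = 0.0135). The call was kept in all 21 alternatives, as were those of Grpel1, Grpel2, Pam16 and Timm50. Mtx2, Tomm20, Timm10 and Timm29 lost theirs in 1 alternative only, a single fit of all 20 libraries with one spread for both tissues (adjusted p = 0.234, 0.0716, 0.0573 and 0.179).

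Of the 3 genes here of the TIM22 translocase, which inserts carriers into the inner membrane, 1 fell in heart, and the other 2 did not pass. Timm29 (ENSMUSG00000048429, chromosome 9 from 21592722 to 21595970, plus strand) encodes a subunit that stabilises the translocase and contacts TOM. It measured 47.8, 49.2, 53.6, 55.1 and 55.4 CPM in WT hearts and 39.9, 40.7, 42.1, 44.05 and 45.9 CPM in Taz-KD hearts. All Taz-KD hearts lay below all WT hearts (52.2 ± 3.52 and 42.5 ± 2.44 CPM, SD, n = 5; log2 fold change -0.30, SE 0.063, adjusted p = 0.00454). Timm29 shares 3.4% of its exon bases with Yipf2 on the other strand, and Yipf2 rose (from 23.2 to 28.4 CPM, log2 fold change 0.30, adjusted p = 0.00709). Timm22, the channel subunit, had a log2 fold change of -0.24 (adjusted p = 0.0952) and passed only with upper-quartile scaling (adjusted p = 0.0491). Timm10b, the small TIM that docks at the channel, measured 5.89 to 6.46 CPM in WT against 5.28 to 6.25 CPM in Taz-KD (log2 fold change -0.11, SE 0.084, adjusted p = 0.386). Timmdc1, a relative of the Timm17 and Timm23 family that helps to assemble complex I, did not pass (log2 fold change 0.04, SE 0.083, adjusted p = 0.787).

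**Figure D3:**
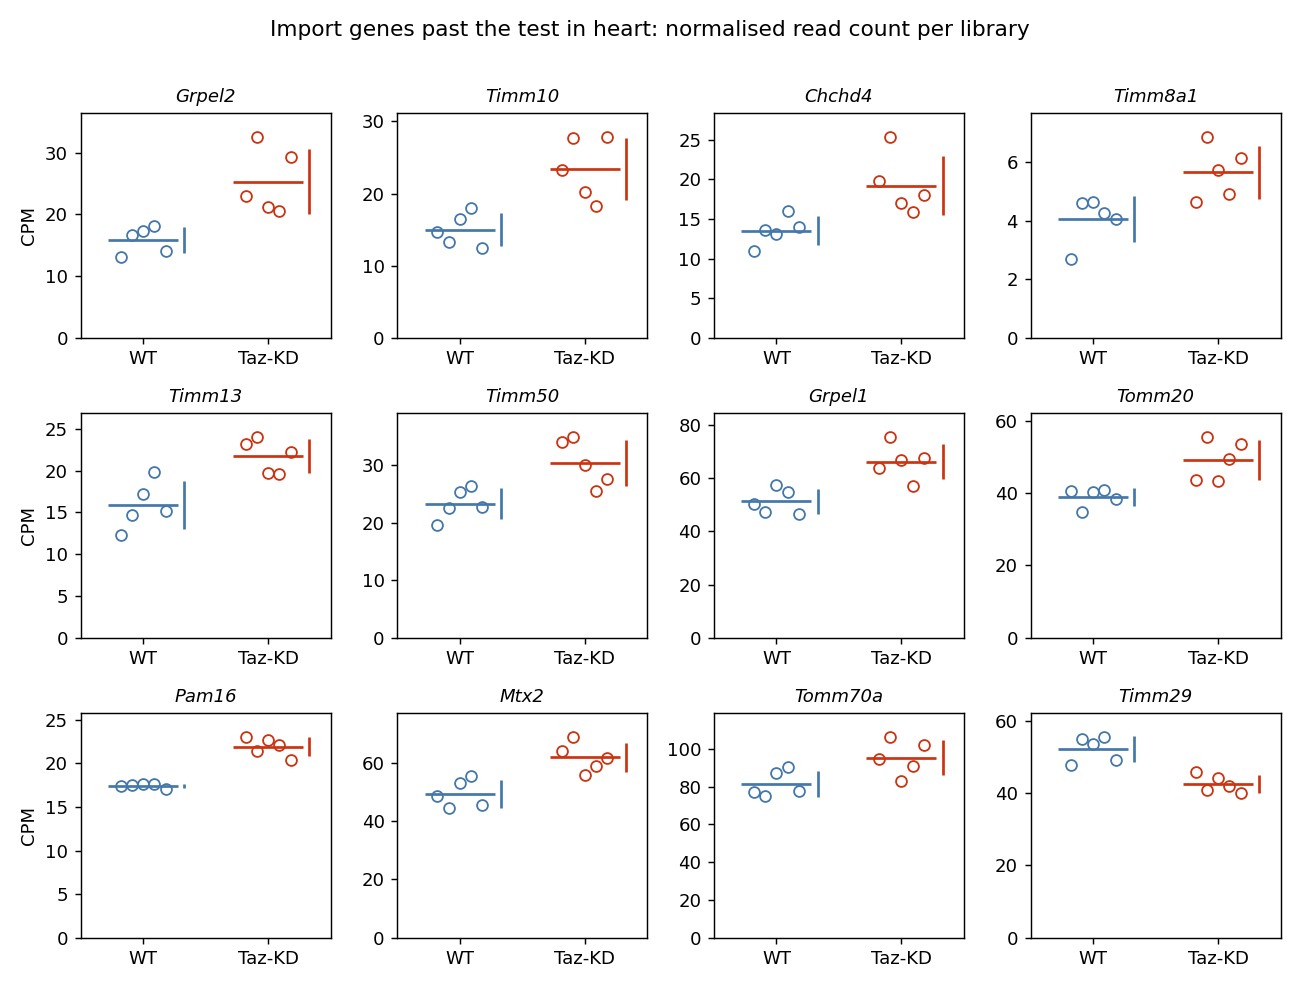
CPM of the 12 import genes past the test in heart, in order of their log2 fold change, for 5 WT (blue) and 5 Taz-KD (red) hearts; each circle is 1 library, the line is the mean and the bar beside it the SD. Pam16 and Timm29 show clear gaps between genotypes, while in Tomm70a the ranges of 74.8 to 90.5 and 83.2 to 106 CPM overlap.

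The Taz-KD hearts did not rise evenly. Over the 11 genes that rose, R1796 was the highest of the 5 Taz-KD hearts in 9 and R1798 was the lowest in 6, and these ranks are a description without a test. Without R1796 the number of import genes that passed as higher was 9, without R1798 it was 11, and without R2 and R3 together it was 8. Over all genes these fits called 2302 of 19703, 2695 of 19731 and 2268 of 19514 higher. The 11 without R1798 held Tomm40 (adjusted p = 0.0427, edgeR) in place of Tomm70a (adjusted p = 0.0572).

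Markers of other cells moved in heart too. Of 4 endothelial markers (Pecam1, Cdh5, Kdr and Tie1) 2 were lower in Taz-KD hearts, and their sum was 662 to 833 CPM in WT against 545 to 692 CPM in Taz-KD. Of 3 red cell markers (Hba-a1, Hbb-bs and Alas2) 2 were lower, with sums of 351 to 681 and 263 to 416 CPM. Over all genes 10.3% were lower. Of the 5 skeletal muscle markers only Acta1 rose, with sums of 36.7 to 385 CPM in WT against 534 to 1493 CPM in Taz-KD, and Myh4 was at 0 in all hearts. No gene passed among 4 fibroblast markers (Col1a1, Col3a1, Pdgfra and Dcn; 790 to 1674 against 644 to 1116 CPM), 4 macrophage markers (Adgre1, Cd68, Csf1r and C1qa; 96.8 to 141 against 87.3 to 104 CPM), 4 adipocyte markers (Adipoq, Plin1, Cidec and Cfd; 2.87 to 53.6 against 1.77 to 72.1 CPM) or 5 heart muscle markers (31840 to 43370 against 31590 to 44480 CPM). Of the latter, Myl7, a light chain of atrial muscle, adds little to the sum and ranged from 0 to 11.7 CPM in WT against 0.218 to 59.7 CPM in Taz-KD hearts (means 4.53 and 27.8 CPM, log2 fold change 2.61, SE 1.48, adjusted p = 0.245). All 4 endothelial, 4 fibroblast and 4 macrophage markers had log2 fold changes below 0, called or not (medians -0.28, -0.29 and -0.26). All 3 red cell markers and 4 of the 5 heart muscle markers were below 0 too, while all 4 adipocyte markers were above 0. The part of these cells in the import results was not tested.

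In skeletal muscle no import gene passed the test: 0 of 31 were higher and 0 lower (edgeR). In counts simulated at the means and spread of each tissue, 9 of 100 changes of 1.5 fold were found in muscle and 46 of 100 in heart. Rises as small as those in heart could therefore be missed in muscle, and 0 calls do not show that there was no change. Over all 16145 genes tested in muscle 0.0124% were higher and 0.00619% lower, together 0.0186% or 3 genes. DESeq2 and limma-voom also called 0 of them. At an unadjusted p under 0.05 there were 3 import genes, namely Timm22, Timmdc1 and Pam16, where 14.9% of all genes were at that level. In heart there were 14 such import genes, where 36.5% of all genes were. The median log2 fold change was 0.11, against -0.02 over all genes, and 26 of 31 values were above 0. With library sizes in place of TMM the median of all genes in muscle moved to -0.16, so the sign of such small values depends on the scaling. In 2 genes, Timm22 and Pam16, all Taz-KD muscles lay above all WT muscles, as in 1.06% of all genes, and in none all below, as in 1.08% (either way 2.14%). Pam16 measured 22.3, 24.9, 25.8, 27.7 and 27.9 CPM in WT muscle and 27.96, 28.4, 29.4, 29.8 and 29.96 CPM in Taz-KD muscle. The nearest WT and Taz-KD muscles nearly met (log2 fold change 0.18, SE 0.079, adjusted p = 0.33). The largest muscle values without a call were Timm23 (log2 fold change 0.30, SE 0.16, adjusted p = 0.394) and, downward, Timm10b (log2 fold change -0.36, SE 0.19, adjusted p = 0.384), with A33 and A55 the highest WT muscles in Timm10b. Adipocyte markers summed to 45.0 to 2023 CPM in WT muscle, with A33 highest, and to 9.90 to 212 CPM in Taz-KD muscle, and their part in these values was not tested. Without A33 and A55 again 0 import genes passed.

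Across tissues 21 of the 31 genes had the same sign of change, and 0 were called in both, as 0.0136% of all genes were. The 11 genes that rose in heart had log2 fold changes from -0.06 to 0.21 in muscle, above 0 in 10 of them. With each tissue fitted on its own, the muscle value was the smaller in all 11 (median 0.15 against 0.38 in heart). These genes were picked by their heart values, so smaller muscle values can come from that choice alone and are no result. In the fit of both tissues together the difference of Tomm70a was slightly above 0 (0.046, SE 0.195, adjusted p = 0.984, edgeR). None of these 11 differences between tissues passed the test of the interaction of tissue and genotype. The nearest of them was Grpel2, with 0.68 in heart and 0.15 in muscle (difference -0.46, SE 0.18, adjusted p = 0.162, edgeR). An effect past the test in heart and not in muscle is therefore not shown to differ for these genes.

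The interaction passed for 1 import gene, Timm22, or 3.23% of those tested, against 4.62% of all 20612 genes, so this count is no more than the background gives. Timm22 (ENSMUSG00000020843, chromosome 11 from 76406952 to 76416292, plus strand) encodes the channel of the carrier translocase. In heart it measured 12.2, 13.5, 13.5, 14.2 and 17.3 CPM in WT against 10.3, 11.9, 12.1, 12.4 and 13.1 CPM in Taz-KD. In muscle it measured 21.03, 23.7, 25.5, 26.3 and 27.8 CPM in WT against 28.4, 28.5, 30.7, 30.7 and 30.8 CPM in Taz-KD. The heart values overlapped and leaned downward, and the muscle values were separate and higher in Taz-KD. Neither tissue passed on its own (adjusted p = 0.0952 and 0.311), while the difference, muscle effect minus heart effect, was 0.57 (SE 0.15, adjusted p = 0.0338, edgeR). The call was lost without R1795, R1800, R2 or R1796 (adjusted p from 0.0613 to 0.0656), without A33 and A55 (0.42, adjusted p = 0.0686) and without R2 and R3 (0.55, adjusted p = 0.0693). Timm29 differed by as much (0.57, SE 0.20, adjusted p = 0.119) and passed only without muscle A57 (adjusted p = 0.0301). Its muscle values were 46.1, 69.04, 85.97, 86.4 and 93.02 CPM in WT, the lowest from A55, and 80.6, 85.7, 87.3, 92.01 and 94.5 CPM in Taz-KD. At an unadjusted p under 0.05 there were 6 import genes, Grpel2, Timm21, Timm22, Timm29, Tomm34 and Tomm40l, where 19.7% of all genes were at that level.

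**Figure D4:**
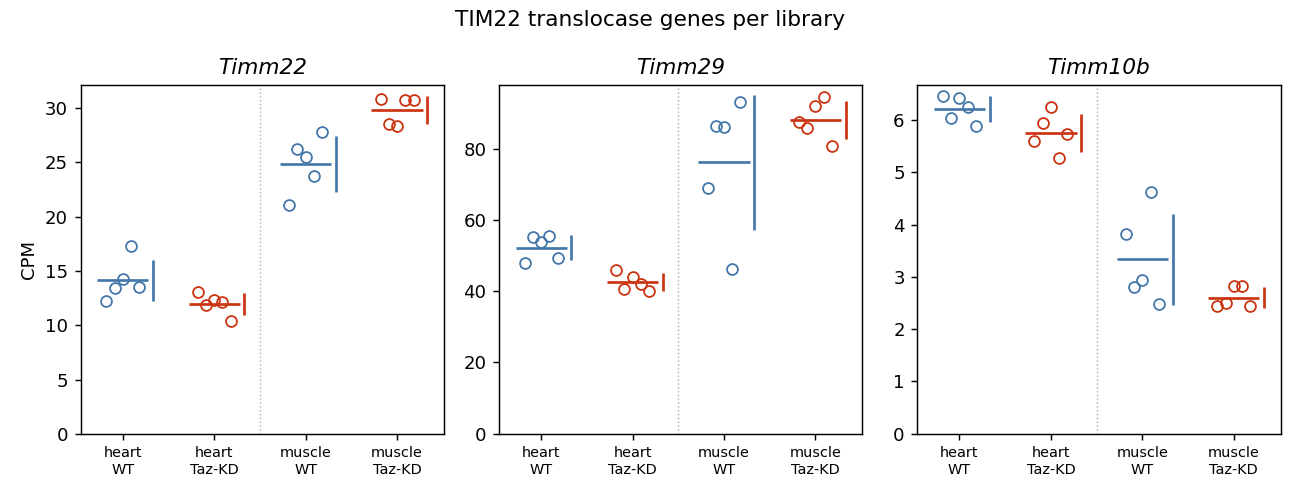
CPM of the 3 TIM22 translocase genes in each library of heart and muscle, WT in blue and Taz-KD in red, with the mean as a line and the SD as a bar (n = 5 per group). Timm22 is lower on average in Taz-KD hearts (11.97 against 14.1 CPM) and higher in every Taz-KD muscle, from 28.4 CPM, than in any WT muscle, up to 27.8 CPM.

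Several import subunits exist as pairs of related genes, and the ratio within a library compares the pair free of the scaling. Of 10 ratios, 5 pairs in each tissue, 2 differed between genotypes after adjustment over the 10, both in heart (exact two-sided permutation tests over 252 ways, of which 0.00794 is the smallest p possible). A single ratio at this p could not have passed the adjustment, so each of the 2 passed only because the other was at the same p. Tomm40 is the channel of TOM and Tomm40l its relative. Tomm40 measured 40.3, 43.7, 45.5, 46.7 and 50.9 CPM in WT hearts and 44.6, 49.5, 51.4, 55.95 and 56.8 CPM in Taz-KD hearts, and Tomm40l measured 38.00, 39.3, 42.2, 46.3 and 46.4 CPM in WT against 36.2, 36.6, 37.00, 38.4 and 42.2 CPM in Taz-KD. Per length Tomm40l stood at 0.790 to 0.872 of Tomm40 in WT hearts and at 0.603 to 0.729 in Taz-KD hearts, without overlap (log2 change of the ratio -0.34, exact permutation p = 0.00794, adjusted p = 0.0397). Neither gene passed on its own with all hearts (adjusted p = 0.112 and 0.138, edgeR), and Tomm40 passed only without R1798 (adjusted p = 0.0427). Of the exon bases of Tomm40l 64.3% lie opposite Nr1i3, which was counted at 29.7 CPM in WT against 26.4 CPM in Taz-KD hearts (log2 fold change -0.17, adjusted p = 0.151) and at 0.0302 CPM in WT muscle. Of the exon bases of Tomm40 5.7% lie opposite Gm20512. Gm20512 was counted at 9.99 CPM in WT against 11.4 CPM in Taz-KD hearts (log2 fold change 0.195, adjusted p = 0.315) and at 0.00497 CPM in WT muscle. If strand was ignored in counting, reads of a gene and of the gene opposite it cannot be told apart. The strand setting was not given in the sources used here, and the part of such reads in the ratio was not tested.

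Timm8b measured 21.6, 24.7, 26.1, 28.5 and 31.99 CPM in WT hearts and 19.8, 20.00, 21.8, 25.99 and 26.2 CPM in Taz-KD hearts, with overlap and no call (log2 fold change -0.22, SE 0.11, adjusted p = 0.181). Its relative Timm8a1, the gene of a deafness and dystonia syndrome in humans, rose as given above. Per length Timm8b stood 14.6 to 26.4 times above Timm8a1 in WT hearts and 9.44 to 12.2 times in Taz-KD hearts (log2 change of the ratio -0.71, exact permutation p = 0.00794, adjusted p = 0.0397). This ratio uses the same reads as the Timm8a1 call and is no second line of evidence. It rests on few reads, because Timm8a1 had only 72 counts in its lowest heart. Nkapd1, opposite 15.6% of the exon bases of Timm8b, was at 15.5 CPM in WT against 15.7 CPM in Taz-KD hearts (adjusted p = 0.869, edgeR).

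The other 3 pairs gave no difference in heart that passed. Timm17a and Timm17b, alternative subunits of TIM23, measured 78.5, 79.7, 82.99, 86.5 and 92.95 CPM and 10.7, 11.04, 11.2, 11.7 and 11.9 CPM in WT hearts. In Taz-KD hearts they measured 87.2, 87.5, 87.9, 91.7 and 97.8 CPM and 11.8, 11.9, 11.9, 12.3 and 12.3 CPM. Timm17b per length stayed near 0.418 of Timm17a in WT and 0.419 in Taz-KD at the median (exact permutation p = 0.857). Grpel2 rose more than Grpel1, from 0.136 to 0.184 of it in WT to 0.166 to 0.226 in Taz-KD, with overlap (log2 change of the ratio 0.29, exact permutation p = 0.0397, adjusted p = 0.132). Mtx1, the partner of Mtx2, measured 12.8, 13.6, 14.1, 15.3 and 15.96 CPM in WT against 14.5, 14.9, 15.8, 16.1 and 16.9 CPM in Taz-KD hearts (log2 fold change 0.12, SE 0.077, adjusted p = 0.28), and the ratio of Mtx2 to Mtx1 changed by 0.20 on the log2 scale (exact permutation p = 0.103, adjusted p = 0.258). Of the exon bases of Mtx1 21.2% lie opposite Gm43737 (8.98 CPM in WT against 9.77 CPM in Taz-KD hearts, adjusted p = 0.354, edgeR). A further 8.9% are shared with Thbs3, also on the other strand (9.03 CPM in WT against 8.22 CPM in Taz-KD hearts, adjusted p = 0.731, edgeR). The part of such reads in the values of Mtx1 was not tested.

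In muscle no ratio differed (exact permutation p from 0.405 to 0.96). Grpel1 measured 47.5, 50.8, 53.8, 57.9 and 61.2 CPM in WT against 53.7, 61.5, 62.6, 63.3 and 64.96 CPM in Taz-KD muscle, and Grpel2 measured 16.1, 17.1, 19.4, 19.6 and 19.8 CPM in WT against 19.5, 20.4, 20.6, 20.8 and 21.2 CPM in Taz-KD. Both were a little higher on average in Taz-KD and overlapped. Tomm40 ranged over 30.1 to 41.7 CPM in WT against 28.7 to 41.0 CPM in Taz-KD muscle, Tomm40l over 9.45 to 13.2 and 10.7 to 15.7 CPM, Timm17a over 77.9 to 111 and 83.9 to 118 CPM, and Timm17b over 20.2 to 29.2 and 22.1 to 28.05 CPM. The same held for Timm8b (46.2 to 64.0 and 51.4 to 62.0 CPM), Timm8a1 (3.48 to 7.58 and 3.21 to 7.01 CPM), Mtx1 (means 14.1 ± 3.93 and 12.99 ± 1.51 CPM, SD, n = 5) and Mtx2 (21.2 to 36.8 and 19.7 to 34.5 CPM), whose genotypes overlapped throughout.

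**Figure D5:**
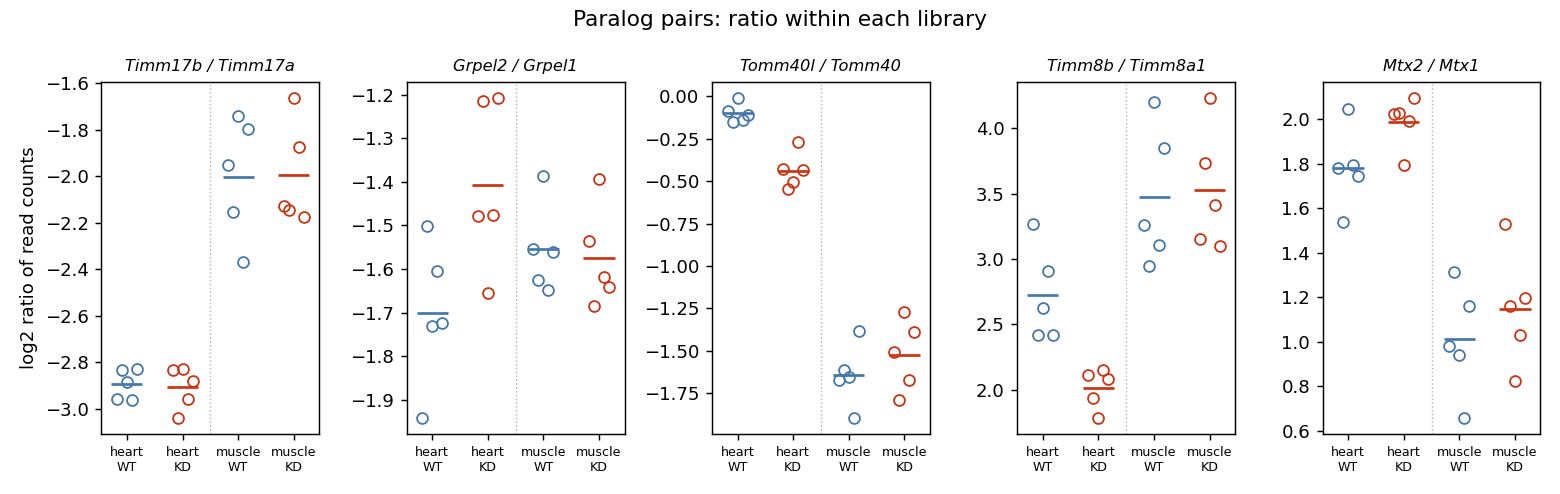
Log2 ratio of read counts of 5 pairs of related import genes within each library, by tissue and genotype, with the group mean as a line (n = 5); the vertical scales differ. In heart the ratios of Tomm40l to Tomm40 and of Timm8b to Timm8a1 are lower in every Taz-KD library than in any WT library, and in muscle all groups overlap.

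Genes that work with the import machinery but fall outside the naming rule were read from a list of 25 chaperones, proteases and insertases. In heart 9 rose and 1 fell, where 14.4% of all genes were higher and 10.3% lower, with a median log2 fold change of 0.15. In one fit of all 20 libraries 5 passed as higher, where 1372 of all 20612 genes did. In muscle 0 of 24 tested passed, where 0.0186% of all genes did, with a median of 0.12. Hspa9, the mortalin that drives the import motor and that Grpel1 and Grpel2 serve, rose from 521 ± 43.9 to 1346 ± 100.5 CPM (SD, n = 5; log2 fold change 1.37, SE 0.080, adjusted p = 1.91e-07). Hspe1 and Hspd1, the chaperonin that folds imported proteins, rose from 35.3 ± 6.83 to 68.6 ± 9.49 CPM (log2 fold change 0.96, SE 0.13, adjusted p = 0.00031) and from 290.5 ± 32.5 to 502 ± 32.8 CPM (log2 fold change 0.79, SE 0.084, adjusted p = 3.29e-05). Further rises were those of March5, an outer membrane ubiquitin ligase (log2 fold change 0.54, SE 0.058, adjusted p = 3.43e-05), Immp2l, an inner membrane peptidase (log2 fold change 0.68, SE 0.14, adjusted p = 0.00295), Gfer, the oxidase that recharges Chchd4 (log2 fold change 0.53, SE 0.12, adjusted p = 0.00588), Pitrm1, which degrades cleaved presequences (log2 fold change 0.35, SE 0.078, adjusted p = 0.00642), and Dnajc15, a relative of Dnajc19 (log2 fold change 0.34, SE 0.084, adjusted p = 0.0102). The ninth was Agk, a subunit of the human TIM22 translocase and a lipid kinase, which rose (log2 fold change 0.30, SE 0.089, adjusted p = 0.0277) while Timm29 of the same translocase fell. The 1 that fell was Atad1, which extracts misplaced proteins from the outer membrane (log2 fold change -0.20, SE 0.064, adjusted p = 0.0377), and in 9 of 21 alternatives 0 genes of the list fell.

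The effect on mortalin and on the chaperonin subunit Hspe1 differed between tissues (difference -0.89, adjusted p = 0.0277, and -0.67, adjusted p = 0.049, edgeR). The differences of Hspd1 (-0.49, SE 0.17, adjusted p = 0.1165), Grpel1 (-0.13, SE 0.14, adjusted p = 0.661) and Grpel2 (-0.46, SE 0.18, adjusted p = 0.162) did not pass. Whether these differences are unlike each other was not tested. In muscle Hspa9 measured 446 ± 88.8 CPM in WT against 596 ± 139.6 CPM in Taz-KD (SD, n = 5; log2 fold change 0.42, SE 0.20, adjusted p = 0.351).

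As a measure of mitochondrial RNA at large, 15 nuclear genes of abundant mitochondrial proteins were read beside the import genes. In heart 2 rose (Vdac2 and Vdac3, pores of the outer membrane) and 2 fell (Ndufs1 of complex I and Slc25a4, the ADP/ATP carrier that the TIM22 route imports), with a median log2 fold change of -0.16 against 0.13 for the import genes. These counts are close to the shares over all genes (14.4% higher and 10.3% lower) and are no result about the 15. The number that fell was 9 with library sizes in place of TMM, 6 with upper-quartile scaling or without R2 and R3, 5 with DESeq2 and 1 in one fit of all 20 libraries. Over all genes 1938, 2511, 1641, 2385 and 715 were lower in these settings, in the same order. In muscle 0 of the 15 passed, with a median of 0.08. RNAs encoded in the mitochondria took 10.4% to 13.5% of counts in WT hearts and 9.52% to 12.8% in Taz-KD hearts, and 11.6% to 18.4% and 11.1% to 17.7% in muscle.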

How the data were processed

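RNA sequencing of 20 tissue samples was used. Per the labels and the study's methods the authors depleted total RNA of ribosomal RNA, made dUTP libraries that keep the strand, read 150 bp from both ends, mapped with default STAR to GRCm38 and counted with featureCounts 1.6.4. The deposited values are raw counts per gene, and the authors tested them with DESeq2 2.11.40.6. Strand setting and annotation release were not given in the sources used here. Names and exons came from GENCODE M21 (46574 heart and 53706 muscle genes matched) and promoters from RefSeq.

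Each tissue was fitted on its own with edgeR 4.0.16 in R 4.3.3: filterByExpr, TMM factors, robust quasi-likelihood test of the genotype, Benjamini-Hochberg adjustment over all genes, threshold 0.05. SE was derived from the F statistic. The interaction was tested in one fit of 20 libraries. Labels do not say whether mice shared litters, and p-values measure the spread between these mice. The scripts were tested on simulated counts. The import genes, the lists and the markers were chosen with earlier results of these data known. Full values were given for genes past a test and for 5 pairs of related genes. Alternatives were DESeq2 1.42.0, limma-voom (limma 3.58.1), other scaling factors, other filters and left-out libraries. The promoter motifs, the 5 promoters printed and the comparison with promoters of genes tested in heart were chosen after values were seen, and the core of the NRF1 site took the place of its longer form after the matches of the longer form were known.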

Additional observations from a re-analysis of the deposited data

Results flagged for a closer look

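Timm22 is the import gene whose Taz-KD effect differed between tissues: the effect in muscle minus that in heart was 0.57 on the log2 scale (adjusted p = 0.0338, edgeR). This is 3.23% of the import genes tested, where 4.62% of all genes differed, so the count is no more than the background gives, and the call was lost in 6 of 27 alternatives. Timm44, the tether of the import motor, had 1 Taz-KD muscle far from the others, A52 at 60.7 CPM against 75.4 to 78.3 CPM in the other 4 (gap over range 0.835). Tomm34, the cytosolic cochaperone, had 1 WT muscle far from the others, A33 at 29.2 CPM against 15.9 to 19.7 CPM (gap over range 0.713, critical value 0.71). These 2 came from 124 groups of 5 libraries that were examined, and chance alone marks about 1 in 20 groups.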

How the results depend on the processing

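Leaving out 1 library at a time, 9 to 11 import genes passed as higher and 1 as lower in heart, 0 in muscle, and 0 to 2 differed between tissues. Over all genes 2302 to 2754 were higher and 1501 to 1920 lower in these heart fits. In one fit of all 20 libraries 6 import genes passed as higher and 0 as lower in heart, where 1372 and 715 of all 20612 genes did. With upper-quartile factors 2 import genes passed as lower, where 2511 of all 19486 genes did. Without A33 and A55, or without R2 and R3, 0 import genes differed between tissues. The cause of these shifts was not tested. No result changed direction while called. In muscle 160 genes of all (36 higher, 124 lower) passed with DESeq2 and 3 with edgeR, but 0 import genes with either. In heart 58.4% of called genes were higher with TMM and 49.3% with upper-quartile factors. No paired analysis was possible because the labels share no code between the tissues, and the tissues were taken to come from different mice. Without R2 and R3 (added after seeing the data for the tissue difference, as was leaving out A33 and A55) 8 import genes passed as higher in heart. Of all 19514 genes 2268 were higher in that fit. The lowest count behind a tested import gene in heart was 72, in Timm8a1.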
